A study of Mus musculus with 6 samples.

Results

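The genes examined were 10 autosomal genes of the oligodendrocyte lineage: *Mbp*, *Mog*, *Mag*, *Cnp*, *Mobp*, *Olig1*, *Olig2*, *Sox10*, *Pdgfra* and *Cspg4*. They were chosen by name, as known markers of the lineage, and are 10 of 37273 annotated genes on the autosomes, X and Y, of which 34653 are autosomal. For each gene, reads were counted over the gene body (TSS to TTS) and over the promoter (the 5 kb before the TSS) in the mm9 annotation. For *Mbp* this TSS is that of the upstream Golli transcripts, 79.32 kb before the TSS of the classic *Mbp* transcripts.

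Chromatin was taken from the whole hippocampus of C57/BL6 mice labelled as 6 months old. Fear-conditioned mice (FC) received a foot-shock in a context on consecutive days, control mice (CON) met the same context with no shock, and tissue was collected an hour after a memory test on the third day. Each group has an H4K5ac-ChIP library, made with an antibody to histone H4 acetylated at lysine 5, an IgG-IP library, made with non-specific antibody, and an input library of chromatin without immunoprecipitation. There is 1 library per group and antibody, so no spread between animals could be measured, no test of the conditions was possible, and all intervals below cover counting error only. The study's methods describe several hippocampal samples per group, with chromatin fixed and immunoprecipitated from each. They mention pooling of libraries after gel purification, and do not say how the samples of a group came to 1 library.

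Oligodendrocytes wrap axons in myelin, and they arise from dividing precursor cells that remain in the adult brain. The precursors carry the growth factor receptor PDGFRα and the proteoglycan CSPG4, the transcription factors OLIG1, OLIG2 and SOX10 specify and maintain the lineage, and mature cells make myelin proteins such as MBP and MOG. H4K5ac is a mark of accessible, transcribed chromatin. Oligodendrocytes are a minority of hippocampal cells, and in whole tissue fewer cells of a type and less of the mark per cell cannot be told apart.

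The libraries held from 14549689 to 45673239 aligned reads, with the fewest in FC IgG-IP and the most in FC input. Density is given as RPKM, reads scaled to the length of the region and the depth of the library, so it can be compared between genes. Over the autosomal genes with at least 50 reads, the FC input was denser than the CON input by a median log2 ratio of 0.33 in gene bodies and 0.21 in promoters, whereas the H4K5ac libraries differed by 0.04 in both. A list of neuron genes, named for excitatory neurons but including general neuronal genes such as *Snap25*, *Syt1* and *Rbfox3*, stood above genes of other tissues. In gene bodies, its median log2 ratio of H4K5ac to IgG-IP came to 0.91 (FC) and 0.80 (CON). For genes of other tissues such as *Alb* and *Krt5* it came to -0.18 and -0.23. Over input, the median of microglia genes was -0.32 (FC) and -0.17 (CON) in bodies, beside -0.76 and -0.42 for other tissues. In promoters it was -0.54 and -0.07, beside -0.43 and -0.36, and so below other tissues in FC.

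Before the values, 3 stretches of sequence show what lies just before the TSS of a myelin gene, a transcription factor gene and a precursor gene. They are the 200 bases before the TSS, read 5′ to 3′ in the direction of transcription from mm9, with CpG dinucleotides in capitals, at chr17:37160344-37160543 (minus strand) for *Mog*, chr16:91269814-91270013 (plus) for *Olig1* and chr5:75548116-75548315 (plus) for *Pdgfra*, all of them intergenic in the annotation.
Mog: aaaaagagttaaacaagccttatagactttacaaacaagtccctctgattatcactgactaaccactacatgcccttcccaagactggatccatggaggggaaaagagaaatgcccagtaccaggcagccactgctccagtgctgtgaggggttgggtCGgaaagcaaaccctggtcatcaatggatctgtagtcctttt
Olig1: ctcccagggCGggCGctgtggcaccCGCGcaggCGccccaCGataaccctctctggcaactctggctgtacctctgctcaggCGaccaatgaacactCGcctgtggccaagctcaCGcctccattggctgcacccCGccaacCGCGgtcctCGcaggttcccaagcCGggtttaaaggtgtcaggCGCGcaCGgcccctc
Pdgfra: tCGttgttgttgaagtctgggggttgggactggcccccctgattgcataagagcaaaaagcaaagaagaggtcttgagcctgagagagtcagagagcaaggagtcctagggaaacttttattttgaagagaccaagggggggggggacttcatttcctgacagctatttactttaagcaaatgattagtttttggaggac

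*Olig1* held 17 CpG in these 200 bases, *Mog* 1 and *Pdgfra* 1, against a median of 7 over 21413 autosomal protein-coding genes. The same 200 bases held 17 CpG in *Olig2*, 14 in *Mbp*, 12 in *Cspg4*, 7 in *Cnp*, 6 in *Sox10*, 5 in *Mag* and 4 in *Mobp*. Within 500 bp of the TSS on either side, CpG ranged from 9 in *Mog* to 74 in *Olig1*. The letters ACAAAG, the core that SOX factors recognise, were found on either strand in the 200 bases of *Mag*, *Cnp* and *Mobp*, 3 of 10 members, and in 11.8% of all such promoters. The letters CAGCTG, an E-box of the kind bound by basic helix-loop-helix factors, were in none of the 10 and in 9.68% of all promoters, and TATAAA was in *Olig2* alone and in 10.1%. CAGCTG reads the same on both strands, no member held more than 1 kind of these motifs in its 200 bases, and a match is only a match of letters.

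The next 3 stretches are 300-bp windows of FC H4K5ac-ChIP near *Mog*, *Olig1* and *Sox10*, with ACAAAG and CAGCTG in capitals on either strand. Each had the lowest Poisson p of its gene against the expected count of a scan with IgG-IP as control. They were found by a scan of 300-bp windows described with its results below, and run in the direction of transcription of the gene. The *Mog* window is chr17:37165401-37165700, intergenic and centred 5207 bp before the TSS. The *Olig1* window is chr16:91267401-91267700, intergenic and centred 2463 bp before the TSS. The *Sox10* window is chr15:78996651-78996950, centred 1880 bp before the TSS and in an intron of the non-coding transcript Gm10863, 0.3 kb from its TSS.
Mog: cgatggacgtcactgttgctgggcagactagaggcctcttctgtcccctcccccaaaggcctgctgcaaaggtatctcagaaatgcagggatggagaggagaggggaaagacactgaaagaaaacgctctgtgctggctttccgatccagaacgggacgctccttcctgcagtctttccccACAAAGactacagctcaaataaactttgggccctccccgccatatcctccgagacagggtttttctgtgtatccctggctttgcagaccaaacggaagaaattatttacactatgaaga
Olig1: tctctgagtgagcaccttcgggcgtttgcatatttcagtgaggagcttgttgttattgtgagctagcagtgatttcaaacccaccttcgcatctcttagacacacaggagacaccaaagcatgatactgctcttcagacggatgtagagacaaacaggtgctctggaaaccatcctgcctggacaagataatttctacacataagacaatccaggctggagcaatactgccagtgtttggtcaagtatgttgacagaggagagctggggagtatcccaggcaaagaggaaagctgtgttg
Sox10: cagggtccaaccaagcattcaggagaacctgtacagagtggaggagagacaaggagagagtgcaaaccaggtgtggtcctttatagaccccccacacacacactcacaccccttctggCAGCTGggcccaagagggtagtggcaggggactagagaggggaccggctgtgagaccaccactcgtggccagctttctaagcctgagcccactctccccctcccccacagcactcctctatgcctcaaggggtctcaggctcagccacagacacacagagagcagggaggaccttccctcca

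The *Mog* window held 1 ACAAAG and 9 CpG, the *Sox10* window 1 CAGCTG and 2 CpG, and the *Olig1* window neither motif and 4 CpG. Among 342506 windows of the same length tiled over the 5 kb before autosomal protein-coding genes, 24.6% held ACAAAG, 12.4% held CAGCTG, and the median CpG count was 2.

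H4K5ac was densest over the bodies of *Mbp*, *Cnp* and *Cspg4* and sparsest over *Pdgfra*. *Mbp* encodes myelin basic protein, which compacts the myelin membrane. Its gene lies at chr18:82644538-82755029 on the plus strand and spans 110.5 kb, including the upstream Golli exons. H4K5ac-ChIP density over it was 1.21 RPKM in FC (4217 reads) and 1.12 in CON (4435 reads), against 0.345 and 0.414 in IgG-IP and 0.708 and 0.439 in input. Both H4K5ac libraries were above all 4 controls. Relative to IgG-IP, the log2 ratio stood at 1.81 for FC (exact binomial 95% interval 1.68 to 1.94) and at 1.43 for CON (1.32 to 1.54), higher than in 94.7% and 92.3% of the autosomal protein-coding genes.

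*Cnp*, which encodes the cyclic nucleotide phosphodiesterase of non-compact myelin, lies at chr11:100436218-100453043 on the plus strand. Its body density was 1.23 RPKM in FC and 1.01 in CON H4K5ac, 0.315 and 0.425 in IgG-IP, and 0.647 and 0.420 in input. Relative to IgG-IP this was a log2 ratio of 1.97 for FC (1.62 to 2.33) and of 1.25 for CON (0.96 to 1.55). The annotated gene includes a non-coding tail shared with *Dnajc7* on the other strand for 8912 bp, and the libraries do not tell strands of transcription apart. In the part before that overlap, H4K5ac density was 1.33 RPKM in FC and 1.05 in CON, so the level did not rest on the shared part.

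*Mog*, whose product sits on the outermost surface of the sheath, spans chr17:37147691-37160343 on the minus strand. H4K5ac density over its body was 0.770 RPKM in FC and 0.686 in CON, that of IgG-IP 0.358 and 0.383, and of input 0.495 and 0.421. *Mag*, an adhesion receptor of the inner face of the sheath, spans chr7:31684202-31699851 on the minus strand, with 0.611 RPKM in FC and 0.441 in CON H4K5ac, 0.351 and 0.294 in IgG-IP, and 0.583 and 0.423 in input. *Mobp*, another protein of compact myelin, spans chr9:120058860-120090602 on the plus strand, with 0.643 and 0.560 RPKM in H4K5ac, 0.381 and 0.409 in IgG-IP, and 0.589 and 0.472 in input. All 3 were above IgG-IP in both groups, with log2 ratios of 1.10 and 0.84 for *Mog*, 0.80 and 0.58 for *Mag*, and 0.75 and 0.45 for *Mobp* in FC and CON. Over input, *Mag* stood at 0.07 (-0.15 to 0.28) in FC and 0.06 (-0.20 to 0.32) in CON, and *Mobp* at 0.13 (-0.02 to 0.28) in FC and 0.25 (0.08 to 0.41) in CON. Over the 10 bodies, the interval over input included 0 for 5 in FC (*Mag*, *Mobp*, *Olig1*, *Olig2* and *Sox10*) and for 3 in CON (*Mag*, *Olig1* and *Olig2*), which were not distinguishable from input at this depth.

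Among the transcription factors, *Sox10* (chr15:78985343-78994920, minus strand) had 0.684 RPKM of H4K5ac in FC and 0.610 in CON, with 0.388 and 0.304 in IgG-IP and 0.688 and 0.377 in input. *Olig2* (chr16:91225795-91228922, plus) had 0.455 and 0.373 in H4K5ac, 0.352 and 0.310 in IgG-IP, and 0.483 and 0.414 in input. *Olig1* (chr16:91270014-91272184, plus) had 0.481 and 0.551 in H4K5ac, 0.095 and 0.251 in IgG-IP, and 0.323 and 0.415 in input. The short bodies limit both *Olig* genes: *Olig1* rested on 33 and 43 H4K5ac reads and on 3 and 9 IgG-IP reads, and *Olig2* on 45 and 42 against 16 and 16. For *Olig2* the ratio to IgG-IP had an interval from -0.48 to 1.29 (FC) and from -0.59 to 1.20 (CON), and no difference from IgG-IP was detectable.

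The precursor genes were at opposite ends. *Cspg4* (chr9:56712911-56747677, plus) had 1.04 RPKM of H4K5ac in FC and 0.938 in CON, 0.366 and 0.385 in IgG-IP, and 0.662 and 0.464 in input. *Pdgfra* (chr5:75548316-75594229, plus) had 0.283 and 0.257 in H4K5ac, 0.398 and 0.405 in IgG-IP, and 0.594 and 0.455 in input, so both H4K5ac libraries were below all 4 controls. Relative to IgG-IP, *Pdgfra* stood at a log2 ratio of -0.49 (-0.72 to -0.26) for FC and -0.66 (-0.87 to -0.44) for CON, and over input -1.07 and -0.82. Only 11.4% and 9.98% of protein-coding genes had a lower ratio over IgG-IP.

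**Figure D1:**
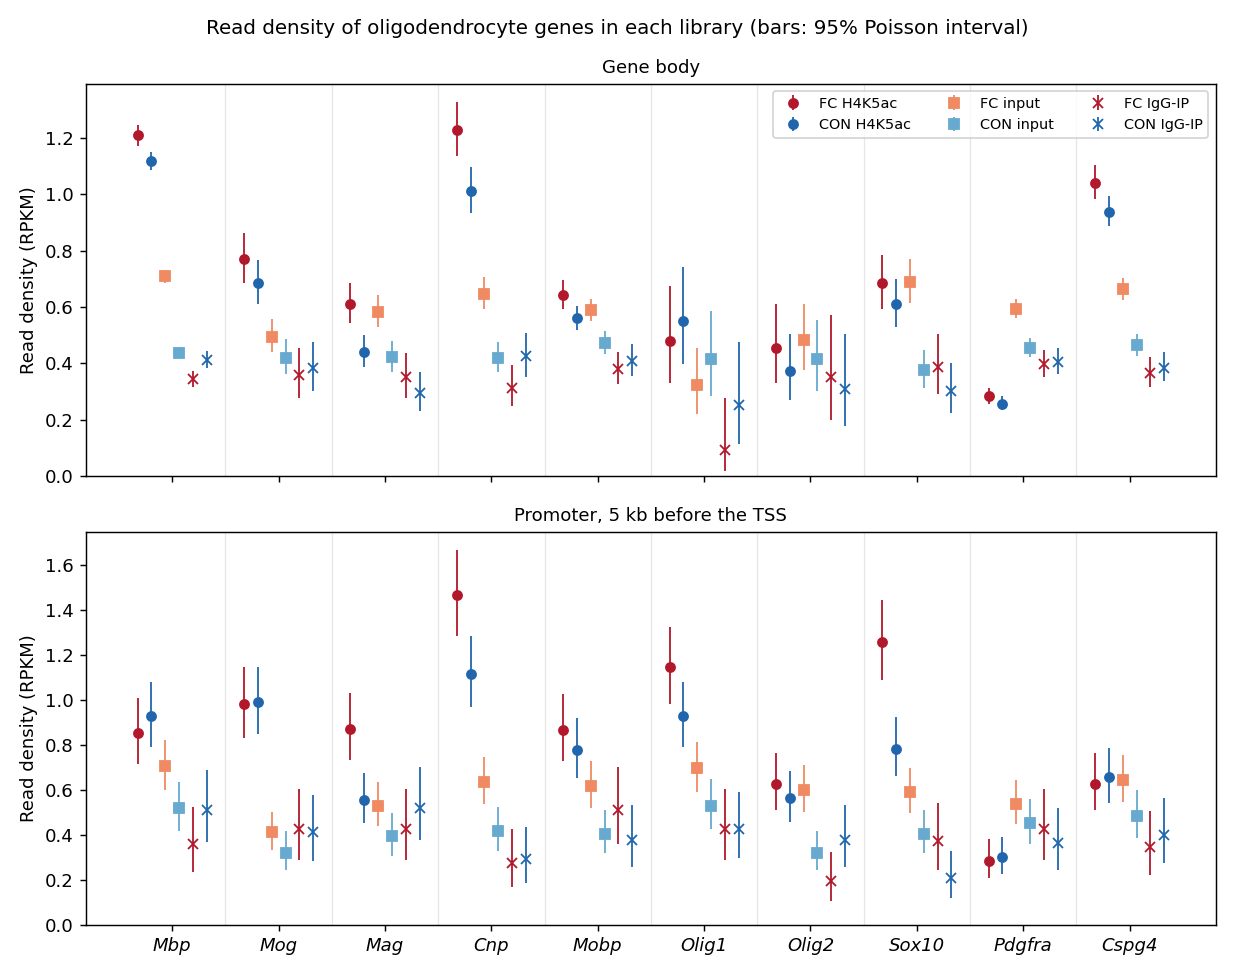
Read density in RPKM (vertical axis) of the 10 genes in each of the 6 libraries, for gene bodies (top) and promoters (bottom), with 95% Poisson intervals as bars. *Mbp*, *Cnp* and *Cspg4* bodies stand above 0.9 RPKM in both H4K5ac libraries, and *Pdgfra* lies below its controls.

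In counts, 4 of the 9 gene bodies with at least 50 reads in H4K5ac and IgG-IP together were at 2-fold or more over IgG-IP in FC (*Mbp*, *Mog*, *Cnp* and *Cspg4*), against 34.9% of 20535 autosomal genes. In CON it was 5 of 10 (*Mbp*, *Cnp*, *Olig1*, *Sox10* and *Cspg4*), against 26.2% of 20759. The 10th gene in FC was *Olig1*, with 36 reads in both libraries. The median log2 ratio of the members was 0.82 in FC and 0.92 in CON, beside 0.74 and 0.63 over all autosomal genes tested. Centred on those all-gene medians, 2 bodies passed 2-fold in FC (*Mbp* and *Cnp*) and 0 in CON, against 7.36% and 4.33%. The intervals of *Mbp*, *Cnp* and *Cspg4* lay wholly above those all-gene medians in both groups, and the interval of *Pdgfra* lay below 0 in both. Against input in place of IgG-IP, no body was at 2-fold or more in FC, where 4.68% of autosomal genes were, and 3 of 10 were in CON (*Mbp*, *Cnp* and *Cspg4*), against 16.0%.

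H4K5ac density was higher in the promoter than in the body in 8 of the 10 genes in each group, the exceptions being *Mbp* and *Cspg4*, against 51.6% of autosomal genes in FC and 52.2% in CON. For *Mbp* that promoter precedes the Golli TSS. The 5 kb before its classic TSS held 1.72 (FC) and 1.74 (CON) RPKM, against 1.06 and 1.03 in the classic unit. *Pdgfra* is among the 8 with 0.285 against 0.283 RPKM in FC, which its counting error does not separate. *Cnp* had the densest promoter, 1.47 RPKM in FC and 1.12 in CON H4K5ac against 0.275 and 0.291 in IgG-IP and 0.635 and 0.417 in input. The *Sox10* promoter had 1.26 and 0.784 RPKM in H4K5ac, 0.371 and 0.206 in IgG-IP and 0.591 and 0.406 in input. The *Olig1* promoter had 1.15 and 0.929 in H4K5ac, 0.426 and 0.424 in IgG-IP and 0.696 and 0.530 in input. Over the *Mog* promoter H4K5ac was 0.981 in FC and 0.990 in CON, with 0.426 and 0.412 in IgG-IP and 0.412 and 0.321 in input. For *Mobp* it was 0.867 and 0.779, with 0.509 and 0.376 in IgG-IP and 0.617 and 0.406 in input, and for *Mbp* 0.854 and 0.929, with 0.357 and 0.509 and with 0.705 and 0.518.

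The *Mbp* promoter in FC, before the Golli TSS, was level with input, at a log2 ratio of 0.28 (-0.06 to 0.62). The 5 kb before the classic *Mbp* TSS stood at 0.89 (0.62 to 1.15) over input in FC. The promoters of *Mag*, *Olig2*, *Cspg4* and *Pdgfra* were also level with a control in one group or more. That of *Mag* had 0.873 and 0.556 RPKM in H4K5ac, 0.426 and 0.522 in IgG-IP and 0.530 and 0.394 in input, and in CON its log2 ratio over IgG-IP was 0.09 (-0.44 to 0.64). This ratio was uneven within the 5 kb. It was -0.72 (-1.4 to -0.03) from 5 to 2 kb before the TSS and 1.55 (0.46 to 2.8) from 2 to 0.5 kb. The *Olig2* promoter had 0.626 and 0.562 in H4K5ac, 0.192 and 0.376 in IgG-IP and 0.600 and 0.321 in input, and in FC its ratio over input was 0.06 (-0.33 to 0.45). That of *Cspg4* had 0.626 and 0.656 in H4K5ac, 0.344 and 0.400 in IgG-IP and 0.644 and 0.485 in input, and in FC stood at -0.04 (-0.42 to 0.34) over input. The *Pdgfra* promoter again had the lowest density, 0.285 and 0.300 RPKM, beside 0.426 and 0.364 in IgG-IP and 0.539 and 0.451 in input.

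All 10 promoters had at least 50 reads. In FC, 7 were at 2-fold or more over IgG-IP (*Mbp*, *Mog*, *Mag*, *Cnp*, *Olig1*, *Olig2* and *Sox10*), against 34.7% of 29669 autosomal genes, and in CON 5 (*Mog*, *Cnp*, *Mobp*, *Olig1* and *Sox10*), against 27.4% of 30317. The *Olig2* ratio in FC, 1.70, rests on 14 IgG-IP reads against 31 in CON, and its IgG-IP was the only one of the 10 promoters with an interval below 0 for FC over CON (-0.97, -1.99 to -0.01). The members' median was 1.23 in FC and 0.96 in CON, beside 0.65 and 0.53 over all autosomal genes tested. Over the protein-coding genes among them it was 0.77 and 0.65. Centred on the medians of all genes tested, 3 promoters passed 2-fold in FC (*Cnp*, *Olig2* and *Sox10*), against 10.6%. In CON 2 did (*Cnp* and *Sox10*), against 7.67%. The *Cnp* promoter reached 2.42 for FC (1.76 to 3.15) and 1.94 for CON (1.33 to 2.62), and that of *Sox10* 1.76 (1.18 to 2.40) and 1.93 (1.20 to 2.75). Against input, 3 promoters were at 2-fold or more in FC (*Mog*, *Cnp* and *Sox10*), against 8.16% of autosomal genes, and 2 in CON (*Mog* and *Cnp*), against 17.2%.

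Neighbours share 2 of these promoters. The first 2665 bp of the *Cnp* promoter lie inside *Ttc25*, a coding gene on the same strand, and there H4K5ac was 1.96 RPKM in FC and 1.30 in CON. In the rest of the *Cnp* promoter it was 0.91 and 0.92 RPKM, with 0.29 and 0.31 in IgG-IP. In the *Sox10* promoter, the 3450 bp that overlap Gm10863 are farthest from the gene, and the part next to *Sox10* had 0.86 RPKM in FC and 0.61 in CON, with 0.22 and 0.12 in IgG-IP. H4K5ac was therefore above IgG-IP in both promoters outside the neighbour as well. The *Sox10* part rests on 5 (FC) and 3 (CON) IgG-IP reads, with log2 intervals from 0.6 to 3.6 and from 0.7 to 4.7. The *Cnp* part rests on 10 and 12, with intervals from 0.7 to 2.7 and from 0.7 to 2.6.

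**Figure D2:**
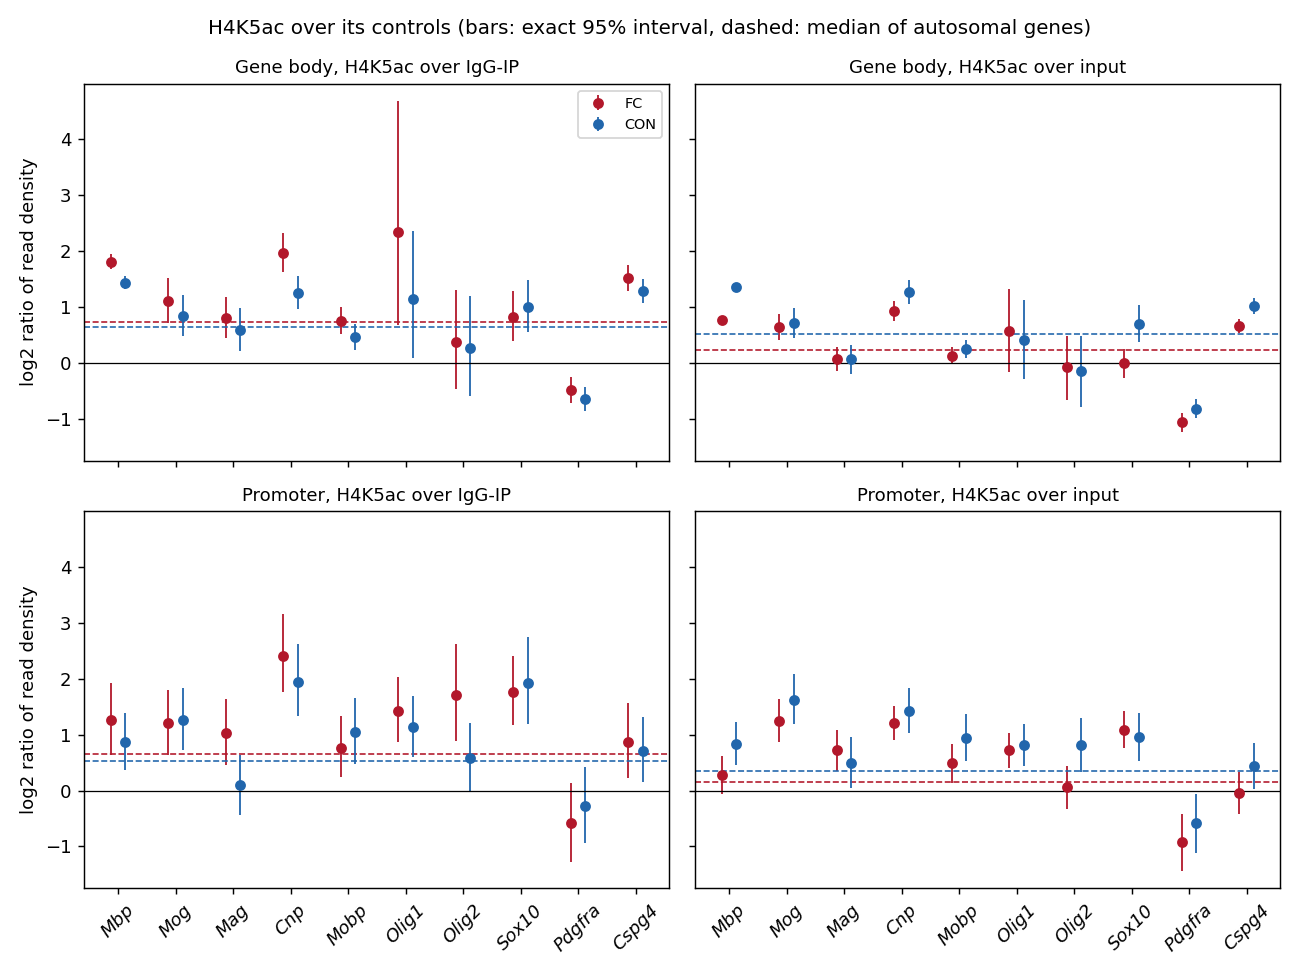
Log2 ratio of H4K5ac over IgG-IP (left) and over input (right) for gene bodies (top) and promoters (bottom) in FC and CON, with exact 95% intervals as bars and the autosomal medians dashed. *Mbp*, *Cnp* and *Cspg4* bodies lie above the dashed lines against either control and *Pdgfra* below 0 in bodies.

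The mark was not spread evenly over *Mbp*. In 4 equal parts of the gene, from TSS to TTS, H4K5ac density was 0.954, 1.18, 1.62 and 1.08 RPKM in FC and 0.903, 1.00, 1.53 and 1.03 in CON, while IgG-IP stayed between 0.30 and 0.44. The third part was densest in both groups. It holds the TSS of the classic *Mbp* transcripts, taken as the commonest annotated transcript start at position 82723855. The 5 kb before that start had 1.72 RPKM in FC and 1.74 in CON, the classic unit after it 1.06 and 1.03, and the Golli part before it 1.27 and 1.15. The 1-kb window with most reads lay 60 to 61 kb after the Golli TSS in FC (93 reads) and 56 to 57 kb in CON (80 reads), and the FC window held 74 reads in CON, the third highest there.

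*Mog* had its maximum outside the gene, 6 to 5 kb before the TSS, with 80 reads in FC and 76 in CON, against 5 and 12 in IgG-IP and 12 and 17 in input. The median 1-kb window around *Mog* held 19 H4K5ac reads in FC and 22 in CON. No annotated gene overlaps this window, and the nearest other TSS is 13.6 kb away. The *Cnp* maximum was also the same window in both groups, 4 to 3 kb before the TSS inside *Ttc25*, with 73 and 59 reads against 4 and 2 in IgG-IP. For *Olig2* the shared maximum lay 7 to 8 kb after the TSS, beyond the gene, with 36 reads in each group and 6 and 5 in IgG-IP. For *Cspg4* it lay 26 to 27 kb into the gene with 53 and 56 reads.

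The 1 kb centred on the TSS was less dense than the 1.5 kb before it in 6 of the 10 members in FC H4K5ac and in 10 in CON H4K5ac, against 49.0% and 56.8% of autosomal genes with at least 10 reads in both stretches together. At the same minimum, IgG-IP gave 7 of 9 members in FC against 58.3%, and 4 of 8 in CON against 60.2%. Input gave 8 of 10 in FC against 50.6%, and 6 of 10 in CON against 61.2%. *Olig1* had 1.33 RPKM before the TSS and 0.51 at it in FC H4K5ac, 1.06 and 0.31 in CON H4K5ac, and in input 0.83 and 0.53 (FC) and 0.64 and 0.28 (CON). *Sox10* had 1.18 and 0.63 in FC H4K5ac and 0.80 and 0.31 in CON H4K5ac, while its input went from 0.61 to 0.50 in FC and from 0.30 to 0.54 in CON, and its IgG-IP held 10 reads or fewer in each stretch. These H4K5ac values rest on 11 to 63 reads each, and the part of the controls in them was not tested.

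**Figure D3:**
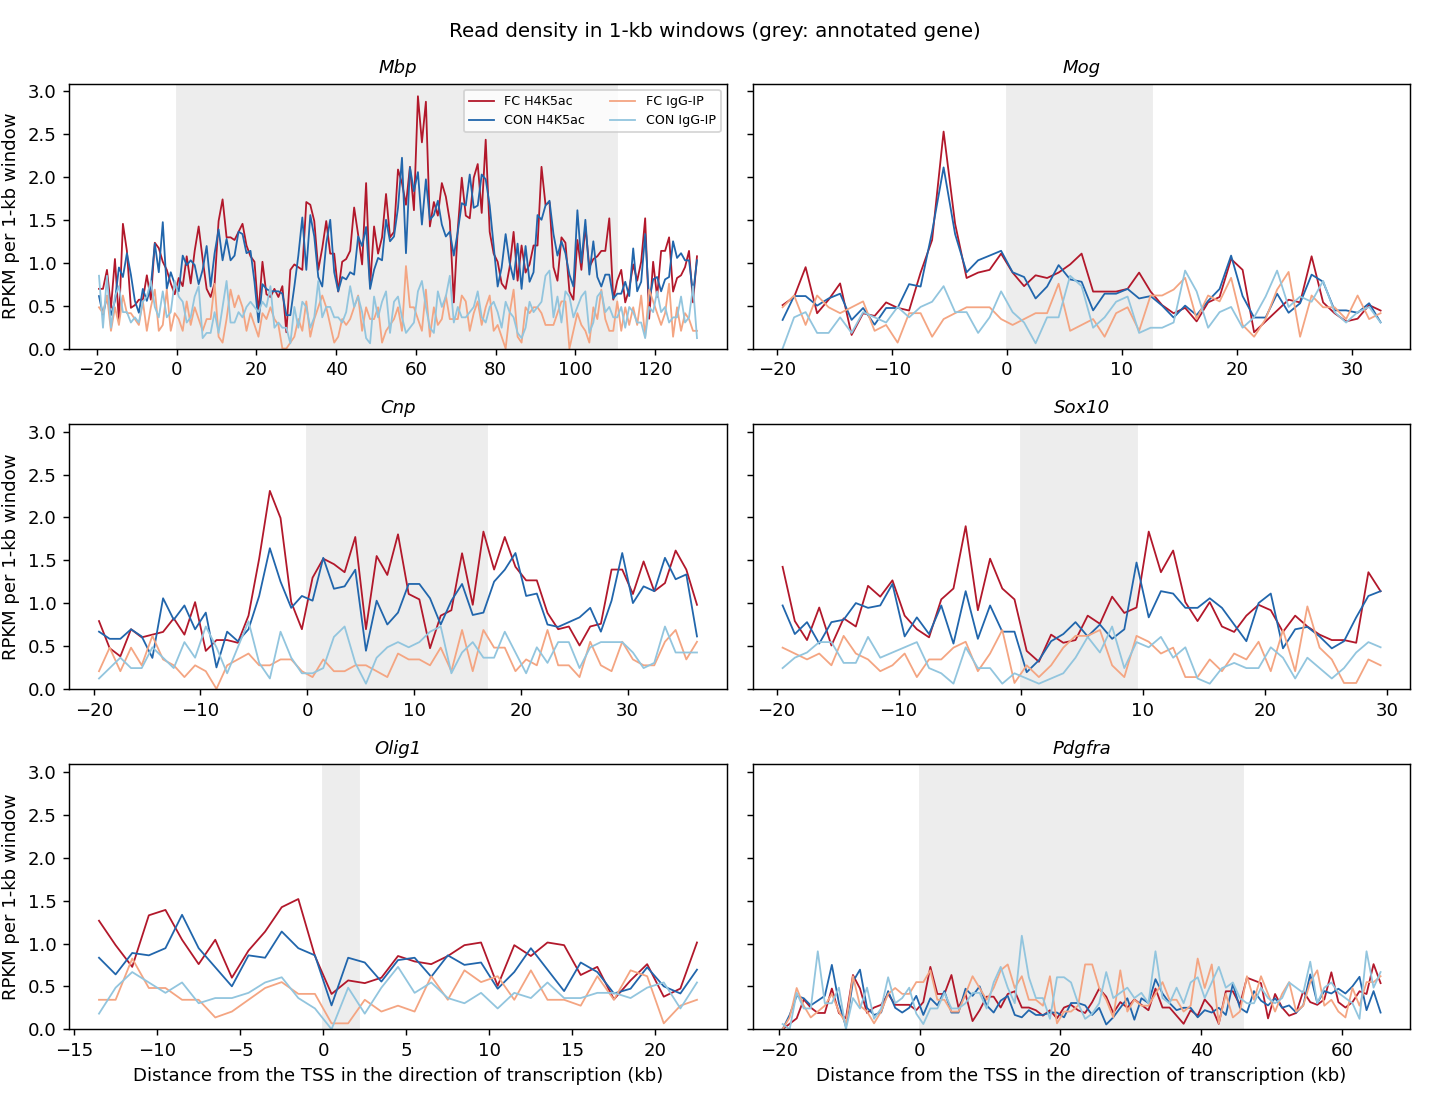
Read density per 1-kb window in RPKM (vertical axis) against distance from the TSS in kb for 6 of the genes, in the H4K5ac and IgG-IP libraries of both groups, with the annotated gene in grey. *Mog* and *Cnp* peak before the TSS in both groups, *Mbp* peaks inside the gene, and over the body of *Pdgfra* the H4K5ac density is below that of IgG-IP in both groups. The 6 windows from 20 to 14 kb before *Olig1* held no read in any library and are left blank.

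Over the windows around each gene, the FC and CON H4K5ac profiles ranked alike, with Spearman's rho from 0.33 for *Pdgfra* to 0.84 for *Mog* and a median of 0.67 over the 10 genes. Neighbouring windows are not independent, so these are descriptions. The same measure between the 2 IgG-IP libraries had a median of 0.13 and between the 2 inputs 0.29. Across the genes, the median window held 4 to 7.5 reads in IgG-IP and 9 to 37 in H4K5ac. Windows without a read in any library were included, 6 around *Olig1*, 3 around *Mag* and 1 around *Olig2*, and they tie in every library. The parts of read depth and of these empty windows in the rho values were not tested.

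A scan of 300-bp windows in 50-bp steps, after the form of the study's peak caller and with a Poisson p below 1e-05 against the denser of the local and genome-wide control, compared library with library. Scaled to the depth of the scanned library, the genome-wide value was that library's own mean. It came to 4.34 reads per window in FC and 5.11 in CON H4K5ac. Where the local IgG-IP was sparser than that, it did not enter the ratio. FC H4K5ac over IgG-IP gave a region in the body or promoter of 6 members (*Mbp*, *Mog*, *Cnp*, *Olig1*, *Sox10* and *Cspg4*), against 28.3% of autosomal genes. CON gave one in 5 (*Mbp*, *Mog*, *Cnp*, *Mobp* and *Cspg4*), against 30.3%. These shares are over all 34653 autosomal genes, with no minimum of reads. They take no account of gene length, and a longer gene holds more windows. *Mbp* held 27 regions in FC and 32 in CON, with medians of 450 bp in width in both, and the highest ratio of reads over the control was 7.37 in FC and 5.29 in CON. *Cnp* held 10 and 3 regions. The *Mog* region was centred at the same place in both groups, 5207 bp before the TSS and so outside the 5-kb promoter, overlapping its far end by 93 bp (FC) and 293 bp (CON), with 24 reads against 4.34 expected in FC and 23 against 5.39 in CON. No member had a region of FC over CON or of CON over FC H4K5ac. Of autosomal genes, 2.47% and 1.71% did.

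Between the groups, H4K5ac scaled to library depth differed little over these genes. Such scaling removes a change shared by the whole genome. By immunoblot of hippocampus, the study reported more H4K5ac after the third-day memory test than in context controls of the first day. The log2 ratio of FC over CON in gene bodies ran from -0.20 in *Olig1* to 0.47 in *Mag*, and 9 of 10 were above 0, against 59.2% of all autosomal genes tested, with a median of 0.17 beside 0.04. No body reached 1.5-fold in either direction, against 2.36% of 21290 autosomal genes higher and 0.770% lower in FC. The intervals lay above 0 for *Mag* (0.22 to 0.72), *Cnp* (0.28, 0.12 to 0.44), *Mobp* (0.20, 0.04 to 0.36), *Cspg4* (0.15, 0.03 to 0.27) and *Mbp* (0.11, 0.05 to 0.17), and below 0 for none. Input was denser in FC too, over 9 of the 10 bodies against 75.3% of autosomal genes, by 0.69 in *Mbp*, 0.62 in *Cnp*, 0.52 in *Cspg4*, 0.46 in *Mag* and 0.32 in *Mobp*, and its part in the H4K5ac ratio was not tested. The order of these 5 differed between input and H4K5ac. The H4K5ac ratio exceeded the input ratio in 3 bodies, *Mag*, *Olig1* and *Olig2*, against 25.4% of autosomal genes, and less the input ratio the members' median was -0.18 beside -0.26 over all genes.

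In promoters, *Sox10* and *Mag* passed 1.5-fold higher in FC, 2 of 10 against 3.26% of 29096 autosomal genes, and none was 1.5-fold lower, against 2.40%. For *Sox10* the H4K5ac reads were 199 in FC and 141 in CON, 1.26 and 0.784 RPKM, a log2 ratio of 0.68 (0.36 to 1.00). For *Mag* they were 138 and 100, 0.873 and 0.556 RPKM, a ratio of 0.65 (0.27 to 1.04). Less the input ratio they stood at 0.14 and 0.23, both under 1.5-fold, and with promoters of 2 kb at 0.71 and 0.37. *Cnp* followed with 0.39 (0.11 to 0.67), at 0.59 (0.24 to 0.93) in the stretch inside *Ttc25* and -0.01 (-0.51 to 0.48) outside it, and at -0.15 with a promoter of 2 kb. The other 7 intervals included 0. The median of the 10 promoters was 0.16 beside 0.04 over all genes tested, and it turned to -0.35 less the input ratio, beside -0.22 over all genes, and to -0.09 over the 9 promoters of 2 kb with 50 reads or more, beside 0.08 over all genes. The controls over the *Sox10* promoter were higher in FC too, by 0.85 (-0.08 to 1.82) in IgG-IP and 0.54 (0.12 to 0.98) in input. Over the *Mag* promoter IgG-IP was at -0.29 (-1.01 to 0.41) and input at 0.43 (-0.01 to 0.87). These 2 promoters were the only ones of the 10 in which the H4K5ac ratio was above the input ratio, against 32.0% of autosomal genes.

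GC content moved with the group ratio. Genes with the same GC content as each member, in 1% steps, had median log2 FC over CON between 0.03 for *Mog* and 0.25 for *Olig1* in bodies. Less that median, *Mag* stood at 0.34 and *Mbp* at 0.02 in bodies, and *Mag* at 0.56, *Sox10* at 0.51 and *Cnp* at 0.30 in promoters, so that neither *Mag* nor *Sox10* passed 1.5-fold. Over the 10 bodies the median of these differences was 0.06, and over the 10 promoters 0.08. For input, genes of the same GC content had medians from 0.26 to 0.73 in bodies. Less those medians, the members' input ratio had a median of -0.09 in bodies, with 3 of 10 above 0. In promoters it was -0.13, with 4 of 10 above 0.

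**Figure D4:**
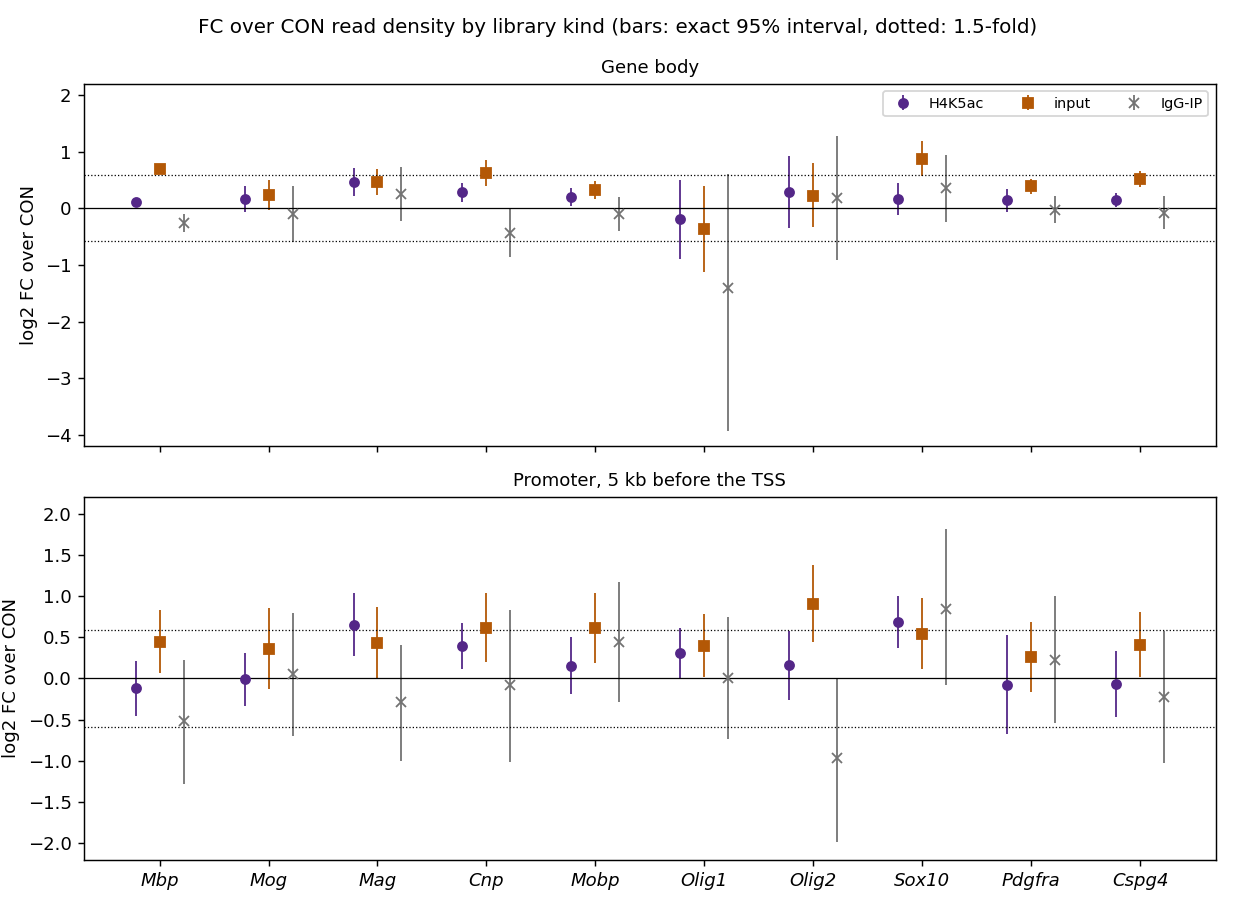
Log2 ratio of FC over CON read density (vertical axis) in the H4K5ac, input and IgG-IP libraries for gene bodies (top) and promoters (bottom), with exact 95% intervals as bars and 1.5-fold as dotted lines. The *Sox10* and *Mag* promoters pass the upper dotted line in H4K5ac, and the input ratio is above 0 in 9 of 10 bodies and in all 10 promoters, against 75.3% and 66.1% of autosomal genes.

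For 6 of the 10 bodies, FC was above CON over IgG-IP and below CON over input, as in 49.6% of autosomal genes and in the all-gene medians (0.74 against 0.63 over IgG-IP, 0.22 against 0.51 over input). The other 4 kept one order against both controls, against 39.6% of autosomal genes. They were higher in FC for *Mag*, *Olig1* and *Olig2* and lower for *Sox10*. Over input, *Mag* stood at 0.07 in FC against 0.06 in CON, which counting error does not separate. The *Olig1* ratio over IgG-IP in FC rests on 36 reads. The FC and CON intervals of *Olig2* overlapped over both controls, at 0.37 against 0.27 over IgG-IP and -0.09 against -0.15 over input. So did those of *Sox10* over IgG-IP, 0.82 (0.38 to 1.28) against 1.005 (0.55 to 1.49). For *Mbp*, H4K5ac over IgG-IP was higher in FC (1.81 against 1.43), and H4K5ac over input was lower in FC (0.77 against 1.35). The same held for *Cnp*, at 1.97 against 1.25 over IgG-IP and 0.93 against 1.27 over input, and for *Cspg4*, at 1.51 against 1.28 and 0.65 against 1.02. The IgG-IP libraries over these 3 bodies were at -0.26, -0.44 and -0.08 in FC over CON.

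A list of 29 further oligodendrocyte genes gave a wider view of the pathway. In gene bodies, 15 of 29 were at 2-fold or more over IgG-IP in FC and 9 of 28 in CON, against 34.9% and 26.2% of autosomal genes, with medians of 1.05 and 0.66. In promoters it was 17 of 29 and 11 of 28, against 34.7% and 27.4%, with medians of 1.14 and 0.92. Over input fewer passed, 2 of 29 bodies in FC and 8 of 29 in CON, against 4.68% and 16.0%, and 7 of 29 and 6 of 28 promoters, against 8.16% and 17.2%. The highest bodies in FC were *Sox8*, a relative of *Sox10*, at 2.27, *Nkx6-2*, a homeobox factor of the lineage, at 1.93, and *Plekhb1* at 1.79. The lowest were the gap junction gene *Gjc3* at -0.29, *Ugt8a*, whose enzyme makes galactolipids of myelin, at 0.18, and *Enpp2*, a secreted lysophospholipase, at 0.20. In CON these 6 stood at 1.44, 0.91, 1.39, 0.30, 0.34 and 0.06 in the same order. The CON value of *Nkx6-2* rests on 46 reads, under the minimum of 50, so that it is the gene not counted in CON bodies. Its FC value rests on 65 reads, with an interval from 0.80 to 3.31. Over input in FC the 6 stood at 1.07, -0.23, 0.82, -0.17, 0.71 and 0.26, so their ranking changed with the control. FC over CON was at 1.5-fold or more higher in 1 of 29 bodies and in 3 of 29 promoters, against 2.36% and 3.26% of autosomal genes, and lower in none, against 0.770% and 2.40%.

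Lists of 12 genes each were counted for other cell types and for other tissues. In promoters, the median log2 ratio to IgG-IP came to 1.07 (FC) and 0.83 (CON) for astrocyte genes, 0.75 and 0.86 for neuron genes, and 0.16 and 0.53 for microglia genes, beside -0.11 and -0.31 for genes of other tissues. In gene bodies it was 0.74 and 0.83 for astrocyte genes and 0.51 and -0.02 for microglia genes. Counting 2-fold or more over IgG-IP in promoters, it was 7 and 4 of 12 astrocyte genes, 4 and 4 neuron genes, 2 and 3 microglia genes, and 1 and 1 genes of other tissues, against the 34.7% (FC) and 27.4% (CON) of all autosomal genes.

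**Figure D5:**
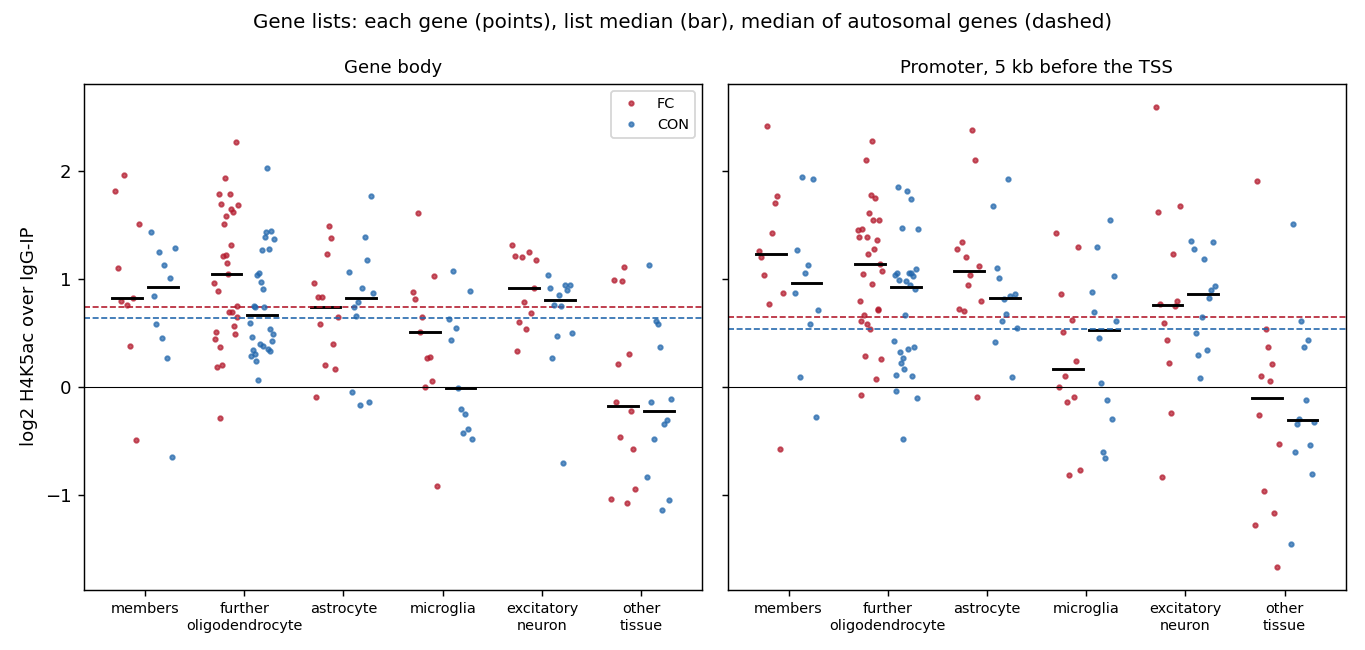
Log2 ratio of H4K5ac over IgG-IP for each gene of 6 lists (points) in FC and CON, with list medians as bars and autosomal medians dashed, for gene bodies (left) and promoters (right). Only genes with at least 50 reads are drawn, and the genes of other tissues have medians below 0 in every panel.

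Among autosomal protein-coding genes outside these lists, those with body and promoter densities closest to the members' medians in FC and CON were *Stx5a*, *Nipal4* and *1700014D04Rik*, at Euclidean distances of 0.067, 0.068 and 0.081 in log2 RPKM over the 4 values. The members' medians were 0.663 and 0.870 RPKM in FC and 0.584 and 0.781 in CON for bodies and promoters.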

How the data were processed

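DNA of 6 hippocampal libraries was sequenced by the authors as reads of up to 50 bp on a SOLiD system and aligned to mm9. The deposited files hold 1 aligned read per line with its position and strand. Their only measured column is a score, the mapping quality that the authors' aligner gave each read, from 4 to 100. It is not a count, and no normalization had been applied. Reads were counted here, with equal weight, where they overlapped a GENCODE gene interval or the 5 kb before its TSS by at least 1 base, on the same build (NCBIM37, mm9). Counts were divided by length and by library total to give RPKM.

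Samples were grouped by their labels. With 1 library per group and antibody, ratios carry exact (Clopper-Pearson) binomial 95% intervals and densities exact Poisson intervals, which cover counting error only; reads carry no molecular identifiers. A ratio was called at 2-fold over IgG-IP or 1.5-fold between groups, in genes with 50 reads or more in the 2 libraries together, and is read against the share of all autosomal genes called. The scan of 300-bp windows used 1 read per position and strand, shifted by 75 bp. The code was tested on simulated data. Python 3.11.15, NumPy 2.4.6, SciPy 1.17.1 and pandas 2.3.3 were used.

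The 10 genes and the lists were chosen with earlier results of these data known. All 10 were named, with the 3 highest and 3 lowest of the further oligodendrocyte genes by FC gene body ratio over IgG-IP, the 3 genes closest to the members' medians, and annotated neighbours. Alternatives were 1 read per position and strand, input as control, promoters of 2 kb, read midpoints, mapping quality of 20 or more, centring on all genes, the longest coding transcript and a minimum of 10 reads. RefSeq tables of another build were not used.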

Additional observations from a re-analysis of the deposited data

Results flagged for a closer look

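H4K5ac over input had opposite signs in FC and CON in 2 of the comparisons. Over the body of *Sox10*, the log2 ratio was -0.01 in FC (-0.27 to 0.25) and 0.70 in CON (0.37 to 1.02), a difference of -0.70, and the difference was not tested. The input over this body was 0.87 higher in FC on the log2 scale, and H4K5ac 0.17. Over the promoter of *Cspg4*, the ratio was -0.04 in FC (-0.42 to 0.34) and 0.44 in CON (0.02 to 0.86), a difference of -0.48, which was not tested either. Here the input was 0.41 higher in FC and H4K5ac was at -0.07. Both FC intervals included 0. Over IgG-IP, the signs were the same in FC and CON for every body and promoter of the 10 genes.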

How the results depend on the processing

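The control and the centring changed most counts. Where input replaced IgG-IP as the control, the members at 2-fold or more fell to 0 bodies in FC and 3 in CON (from 4 and 5), and to 3 promoters in FC and 2 in CON (from 7 and 5). With ratios centred on the median of all autosomal genes, they came to 2 bodies in FC and 0 in CON, against 7.36% and 4.33% of autosomal genes, and to 3 promoters in FC and 2 in CON, against 10.6% and 7.67%. Once the FC over CON ratio of input was subtracted, the members' median FC over CON went from 0.17 to -0.18 in bodies and from 0.16 to -0.35 in promoters. With promoters of 2 kb the promoter median changed sign too, to -0.0883, and the cause was not tested. Using 1 read per position and strand, read midpoints, mapping quality of 20 or more, the longest coding transcript or a minimum of 10 reads left the counts over IgG-IP between 4 and 5 in bodies and between 4 and 7 in promoters, and the medians between 0.16 and 0.18. Added after the data were seen were a correction for GC content, which left medians of 0.06 in bodies and 0.08 in promoters, subtraction of the IgG-IP ratio (0.24 and 0.22), leaving out *Cnp* (0.17 and 0.16), and a scan at a Poisson p of 1e-07. That scan left 2 members with a region in FC (from 6) and 2 in CON (from 5), against 15.1% and 13.5% of autosomal genes (from 28.3% and 30.3%), and again 0 in either direction between FC and CON, against 0.254% and 0.182%. No called ratio of a single member changed sign, apart from FC over CON of the *Sox10* promoter less the IgG-IP ratio. There H4K5ac was at 0.68 and IgG-IP at 0.85 (-0.08 to 1.82). Some FC over CON ratios that were not called, but had intervals above 0, changed sign less the input ratio. In bodies, *Mbp* went to -0.58, *Cnp* to -0.34, *Mobp* to -0.12 and *Cspg4* to -0.37, while *Mag* stayed above 0 at 0.007. The *Cnp* promoter went to -0.21. No paired analysis was possible because each group has 1 library per antibody, and for the same reason no library could be left out. Depth limited the bodies of *Olig1* and *Olig2*, whose ratios over IgG-IP rest on 36 to 61 reads.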
